A study of Trichoderma reesei with 18 samples.

Results

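In Trichoderma reesei, 101 genes changed their RNA level with light in the deletion mutant Δ80186 while staying close to constant with light in the wild type QM6a (WT) and in a second mutant, Δ21168. Of these, 44 were higher in light in Δ80186 and 57 were lower. They were chosen by the values themselves. CPM values (a gene's count scaled to the total of its library) were averaged per group, and the light response L of a strain was the log2 ratio of the light mean plus 1 to the dark mean plus 1. A gene was taken if its mean was at least 5 CPM in at least 1 group, if L stayed under 0.5 in size in WT and in Δ21168, and if L was at least 1 in size in Δ80186. Of the 10879 gene rows, 8009 passed the level condition, 3519 of these also met both limits for WT and Δ21168, and 1335 had an L of at least 1 in size in Δ80186.

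Filamentous fungi sense blue light through White Collar type photoreceptors, called BLR1 and BLR2 in Trichoderma, and adapt to it through ENV1, a relative of the Neurospora crassa photoreceptor VIVID. MAP kinase cascades pass signals from a MAP kinase kinase kinase through a MAP kinase kinase to a MAP kinase. The HOG cascade carries osmotic stress signals and the pheromone cascade carries mating signals in Saccharomyces cerevisiae. In Neurospora crassa the MAP kinase of the HOG cascade is also activated rhythmically by the circadian clock, and in Trichoderma reesei light changes the expression of cellulase genes.

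The study compared 3 strains, each in constant darkness and in constant light: WT, Δ80186 lacking TR80186, and Δ21168 lacking TR21168. In the series title both deleted genes are called MAP kinase kinases, with the HOG and pheromone pathways named. Mycelium was grown in minimal medium on cellulose at 28 °C for 96 h, and each of the 6 groups held 3 libraries. Both mutants carry the QM6a background, and the labels do not say whether a mutant is 1 transformant. Nor do they say that each library had a culture of its own. The p-values then cover only the spread between these samples, part or all of which may be technical.

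Library totals ranged from 7945697 to 15672321 counts, lower in Δ21168 than in most libraries of the other strains. The lowest rank correlation between libraries of a group was 0.971 in the dark libraries of Δ21168 and 0.991 to 0.995 in the other groups. Library numbers in the labels put WT and Δ80186 in one series and Δ21168 in another, so strain and series cannot be told apart wherever Δ21168 is compared with WT. No row identifier was paired with a gene name: 0 of the 10879 identifiers, and 0 of the 101 chosen, were found among the 9116 genes of the reference table. The genes are therefore given by identifier, without function, and the sources do not name the rows of the deleted genes. TrD0367C had 0 to 2 reads per library in Δ80186 and 751 to 2269 in the other strains. TrE0746W had 0 reads in Δ21168 and 987 to 1710 in the other strains. Whether these are the rows of the deleted genes was not tested. In bulk mycelium, fewer cells of a kind and less RNA per cell cannot be told apart.

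By construction the light response was large in 1 strain only. Among the 44 genes higher in light in Δ80186, L in that strain ran from 1.01 to 3.52 with a median of 1.24, against medians of 0.13 in WT and 0.004 in Δ21168. Among the 57 genes lower in light, it ran from −4.27 to −1.001 with a median of −1.29, against −0.14 in WT and −0.01 in Δ21168. Most responses were moderate: 11 of the higher and 18 of the lower genes reached an L of 1.5 in size, and 9 and 5 reached 2. These values chose the genes and are a description.

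**Figure D1:**
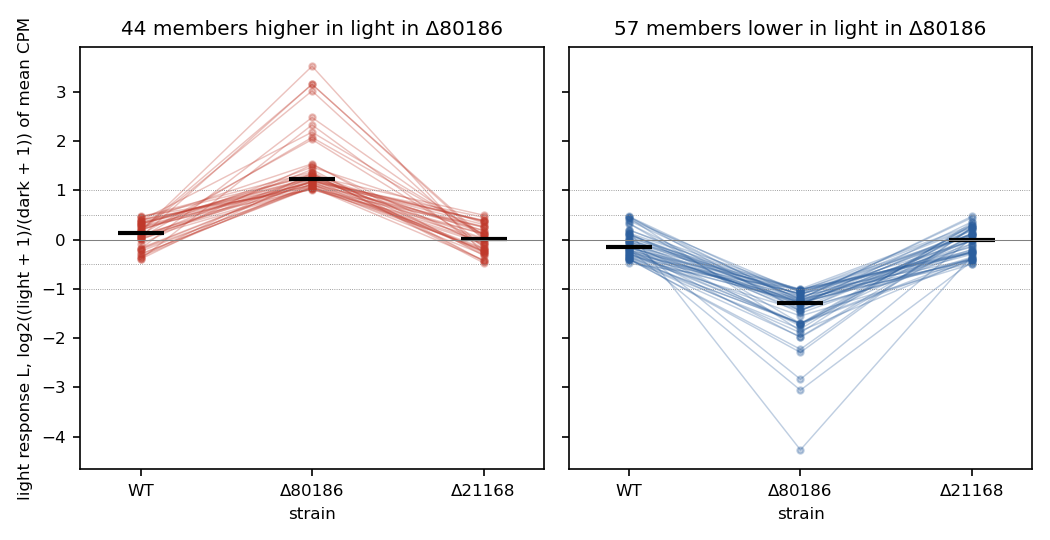
Light response L (log2 ratio of mean CPM plus 1, light over darkness) in each strain for the 44 genes higher (left) and the 57 genes lower (right) in light in Δ80186. Each line joins the 3 values of 1 gene, black bars are medians, and dotted lines mark the limits of 0.5 and 1: most genes sit near L of 1 in size in Δ80186 and a few reach 3 or beyond.

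The cutoff fell in a dense range of values. Just inside it stood TrD1242W with an L of 1.014 and TrA1420C with 1.026 in Δ80186, and just outside TrB1601W with 0.987 and TrB0347C with 0.986. On the lower side TrB0776C and TrB1934C were inside with −1.001 and −1.005, and TrC0455C and TrC0974C outside with −0.995 and −0.993. Between an L of 0.9 and 1 there were 14 further higher and 19 further lower genes that met the other conditions, against 8 and 11 genes between 1 and 1.1.

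Light was also tested within each strain with edgeR's quasi-likelihood test over 9079 genes, in which all 101 genes were included, and genes with a Benjamini-Hochberg adjusted p under 0.05 are called changed. As the rule used these contrasts, the counts describe the choice and nothing is read from them. In Δ80186 all 44 higher genes were called higher in light, as were 27.9% of all genes tested, and 56 of the 57 lower genes were called lower, as were 25.4% (53.3% in either direction). The exception, TrB0776C, had a log2 fold change of −0.95 ± 0.39 (SE, adjusted p = 0.055), although its 3 light values lay below its 3 dark values. Responses were also called in WT, 11 higher and 5 lower among the 44 genes and 4 higher and 8 lower among the 57, where 32.5% and 28.6% of all genes were called higher and lower (61.1% in either direction). In Δ21168 these counts were 4 and 9 among the 44 and 3 and 12 among the 57, where 30.5% and 29.7% of all genes were called (60.2%). In 5 of these genes (TrE0211W, TrC1490W and TrF1198W in WT, TrE0295W and TrF0130W in Δ21168) the fitted change was past 2-fold, at levels of 0 to 14 reads per group, where adding 1 CPM holds L small. It had the same direction as in Δ80186 in TrE0211W, TrC1490W, TrF1198W and TrE0295W, and the opposite one in TrF0130W. For those that share the direction, a response in Δ80186 alone is therefore not shown.

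**Figure D2:**
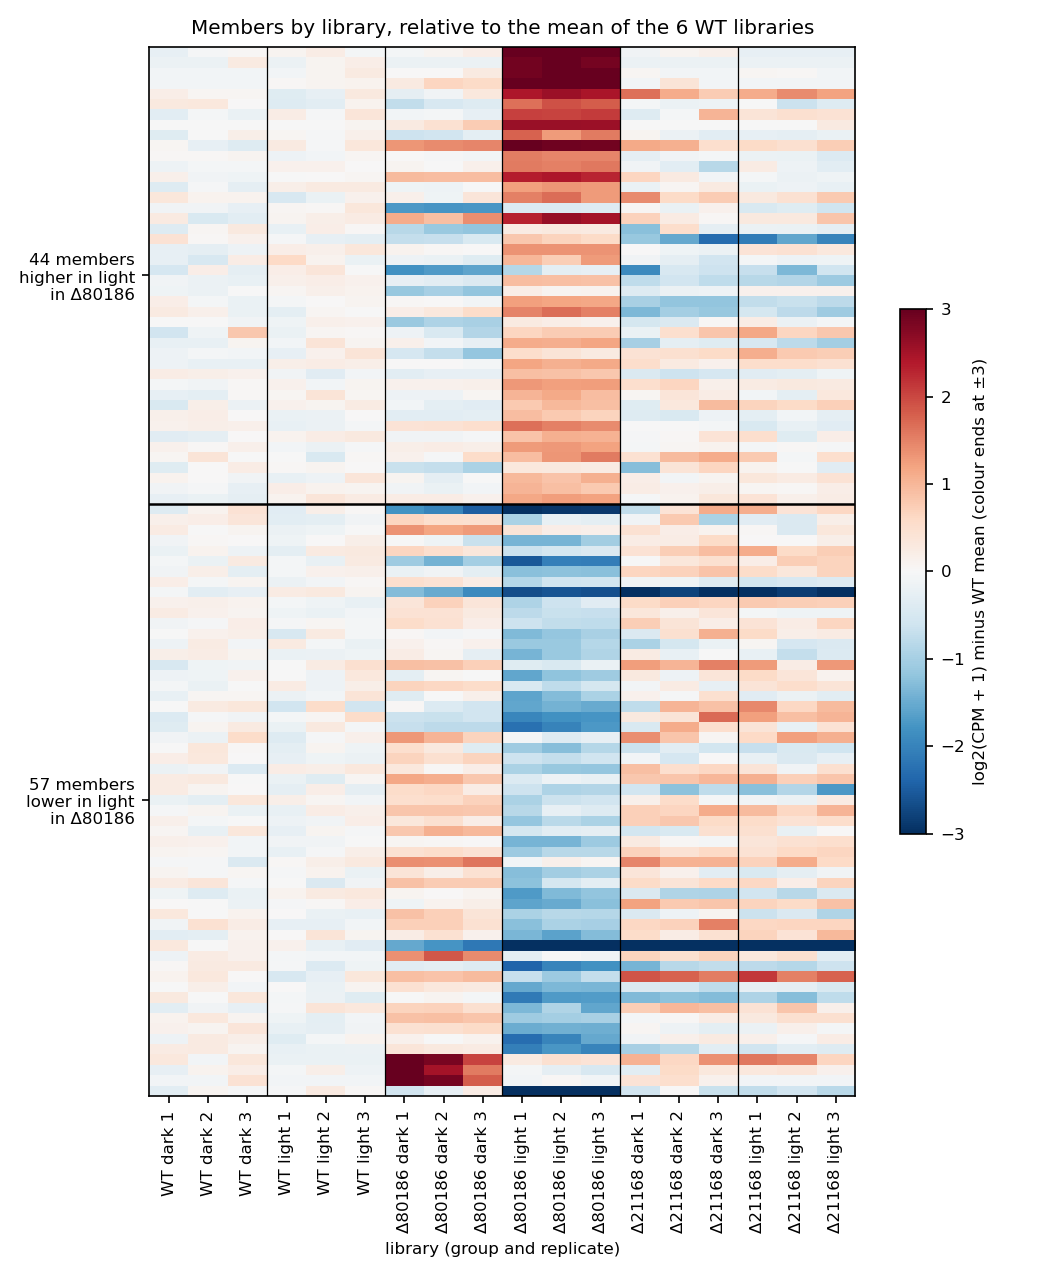
Level of each of the 101 genes (rows, ordered by L in Δ80186) in each of the 18 libraries (columns), as log2(CPM + 1) minus the mean of the 6 WT libraries of that gene. The 3 light libraries of Δ80186 stand out in both blocks, and many rows also differ in the dark libraries of Δ80186 or in all 6 libraries of Δ21168.

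Among the genes higher in light, the largest fold changes belonged to genes close to silent elsewhere. TrA0032W had 7.39, 9.20 and 7.21 CPM in the light libraries of Δ80186 and 0 reads in all 3 dark ones, at least 115-fold higher if the dark group is set to a floor of 3 reads in all (77.7, 73.8 and 78.0 without dark replicate 1, 2 or 3). In the 12 libraries of WT and Δ21168 it had at most 0.362 CPM. TrF1198W had 6.87, 9.89 and 10.7 CPM in light and 0.071, 0.0643 and 0.287 CPM in darkness in Δ80186, a ratio of 65.6 between pooled reads (134 without dark replicate 3). Neither gene overlapped between the light libraries of Δ80186 and any other library. In all, 5 of the 44 genes, also TrD0609C, TrC1490W and TrF0130W, had means under 1 CPM in all 4 groups of WT and Δ21168, out of 14 such rows among the 8009. A row that low there can meet the condition of 5 CPM only in Δ80186. Adding 1 CPM then holds its L small in the other strains, so these counts follow in part from the rule.

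At the other end stood abundant genes with smaller fold changes. TrG0890C, with the highest mean over all libraries among the 44, had 2493, 2460 and 2442 CPM in light in Δ80186 and 1118, 1061 and 973 CPM in darkness. It had 1136 to 1225 CPM in WT darkness, 1453 to 1504 in WT light, and 620.0 to 890 in the 6 libraries of Δ21168. TrA0637W had 984, 1048 and 1013 CPM in light in Δ80186 and 374 to 417 in darkness, and stayed between 319 and 504 CPM in the 12 other libraries. For both genes the light libraries of Δ80186 were above all others. A total of 19 of the 44 genes had a mean of at least 100 CPM, as did 28.8% of the 8009 rows. The median of the 44 genes, 51.5 CPM, was near the 45.0 CPM of all 8009 rows. Together the 44 genes summed to 11880 to 12320 CPM per light library of Δ80186 and to 4718 to 6261 CPM in each of the other 15 libraries.

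The genes lower in light were less abundant, with a median of 18.5 CPM over all libraries. At 100 CPM or more were 8 of 57, against 28.8% of the 8009 rows. The largest L in size belonged to TrE0643W, which fell to 5.02, 5.51 and 4.36 CPM in light in Δ80186. In the other 15 libraries it had 73.0 to 154 CPM, and no value came near those 3. TrC0131C had 13.2, 6.76 and 2.72 CPM in darkness in Δ80186 and 1 read in light, found in replicate 2. Pooled over the libraries this was a 280-fold difference, with an exact 95% interval for counting error from 49.9 to 11100. It was 180-fold without dark replicate 1, 178-fold without light replicate 1, and at least 64.1-fold if light replicate 2 was left out. The few reads of TrC0131C in the other strains also lay in darkness, 6 against 0 in light in WT and 10 against 0 in Δ21168. Neither change was called (edgeR adjusted p = 0.17 and 0.081), so a fall with light in Δ80186 alone is not shown for this gene. In Δ80186, TrD1245C took the same course, with 13.1, 7.53 and 3.44 CPM in darkness and 0.0839 to 0.443 CPM in light, a pooled ratio of 29.7 (47.1 without light replicate 1). Both genes spread widely between the dark replicates of Δ80186, with replicate 1 highest and replicate 3 lowest. Both averaged at least 5 CPM in that group alone and entered the set through it.

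TrC1088W and TrB0776C were the most abundant of the lower genes. TrC1088W had 521, 534 and 531 CPM in light in Δ80186, 2013 to 2175 in darkness, and 1188 to 1886 CPM in the libraries of the other strains. Its level in Δ80186 was thus above all others in darkness and below all others in light. The sum over the 57 genes was 1637 to 1851 CPM per light library of Δ80186 and 5253 to 8955 CPM in the other 15 libraries.

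**Figure D3:**
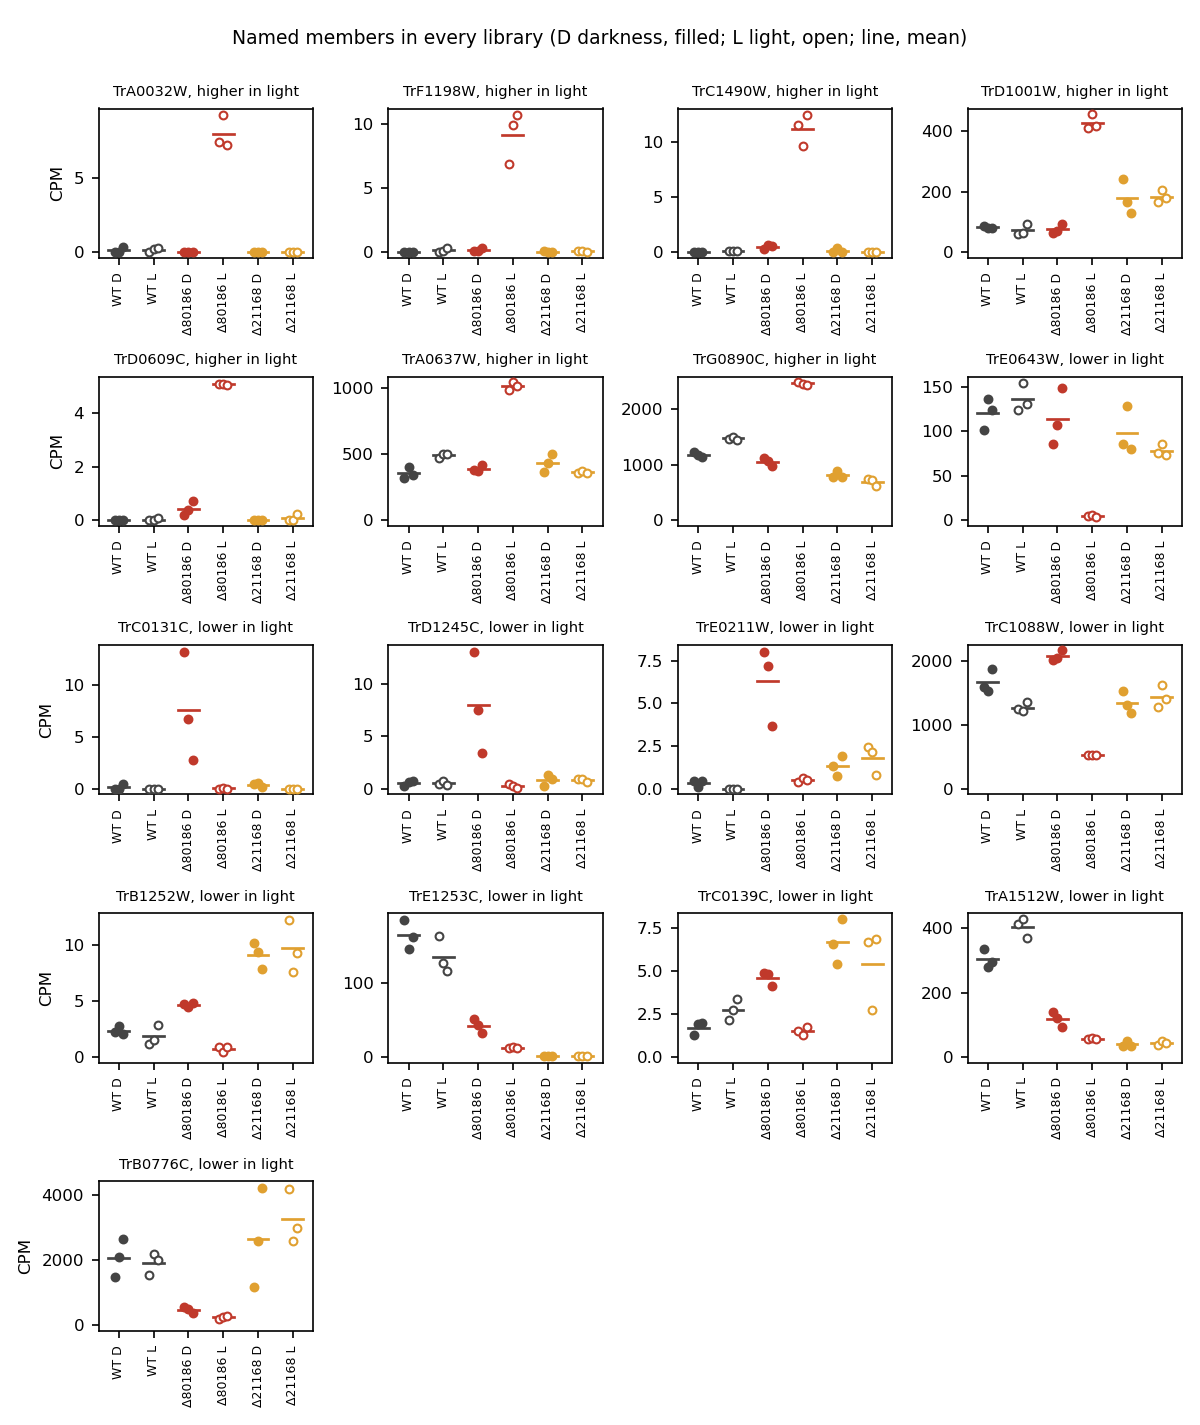
CPM in each of the 18 libraries for the 17 genes named by their fold changes or their abundance (filled points, darkness; open points, light; horizontal lines, means of 3), on linear axes. Panel titles give the direction in light in Δ80186: in TrE0643W the light libraries of Δ80186 stand apart, whereas in TrC0131C and TrD1245C it is the dark libraries.

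The rule fixes the gap between the light and dark levels of Δ80186, not which of them departs from WT. That was read from Δ80186 against WT in each condition, and since the rule bounds the difference of these contrasts, the calls in light and in darkness are not independent of each other. For the same reason, part of any excess of calls over the share of all genes is built in. In light, 36 of the 44 higher genes were called higher than in WT and 1 lower, against 28.0% and 30.7% of all genes, with a median log2 fold change of 1.13 (all genes −0.03). In darkness, 11 of the 44 were called lower and 8 higher, against 17.0% and 17.7%, with a median of −0.01 (all genes −0.005). The share called in darkness, 43.2%, was not far from the 34.7% of all genes.

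Counted gene by gene, 23 of the 44 were called higher than WT in light and not called in darkness, a class that held 15.8% of all genes tested. Another 8 were higher in both conditions (9.57% of all genes), 5 were lower in darkness alone (6.23%), 5 were lower in darkness and higher in light (2.64%), and 1 was lower in both (8.12%). TrA0326W and TrC0603W were called in neither condition, as were 29.6% of all genes. The 3 light values of Δ80186 lay above all 15 other libraries in 33 of the 44 genes, which holds for 8.87% of the 8009 rows. The 3 dark values lay below all 15 others in 4 of them (3.51% of the rows). These shares follow in part from the rule.

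TrD0609C and TrC1490W had the largest differences from WT in light. TrD0609C had 5.10, 5.08 and 5.03 CPM in Δ80186 and a single read in WT, found in replicate 3. This was a 207-fold difference in pooled reads, with an exact 95% interval for counting error from 36.7 to 8210. It was 127-fold without WT light replicate 2 and at least 45.5-fold if WT light replicate 3 was left out. TrC1490W had 11.5, 9.63 and 12.4 CPM against 0.0889, 0.128 and 0.144 CPM in WT (log2 fold change 6.44 ± 0.53 SE, edgeR adjusted p = 2e-07). Both were also called in darkness, at 3 to 10 reads per library of Δ80186 against 0 in all 3 WT libraries, at least 5.99-fold and 6.94-fold higher. For both genes the light libraries of Δ80186 were above every other library. Both averaged at least 5 CPM in that group alone, so their place in the set required a high level there.

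In a few of the higher genes the dark level of Δ80186 was the one that stood apart. TrD0365W, chosen after its values were seen, had 27.7, 31.6 and 30.6 CPM in darkness in Δ80186 and 66.7 to 73.1 CPM in light. The other strains had 41.7 to 71.5 CPM, so that Δ80186 was below them all in darkness (log2 fold change against WT −0.98, adjusted p = 2.6e-05) and close to WT in light (0.19, adjusted p = 0.24). By its number it lies 2 places from TrD0367C, the single identifier with at most 3 reads in each library of Δ80186 and at least 10 CPM in each of the 12 others. TrB1240C, also named afterwards, was the 1 higher gene called below WT in both conditions, with 61.2 to 62.4 CPM in darkness and 157 to 161 in light in Δ80186 against 177 to 264 CPM in WT.

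**Figure D4:**
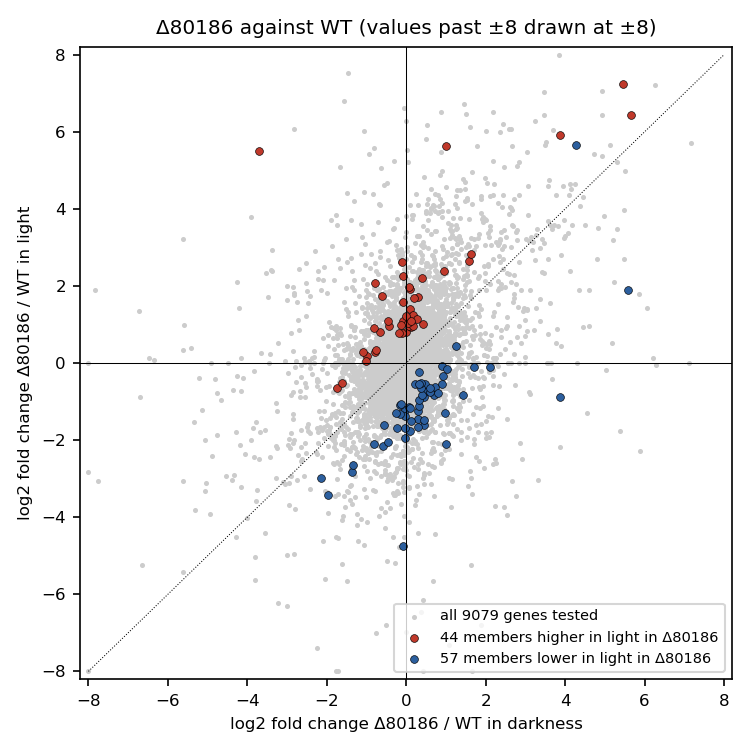
Log2 fold change of Δ80186 over WT in darkness (horizontal) and in light (vertical) for all 9079 genes tested (grey), the 44 genes higher (red) and the 57 genes lower (blue) in light in Δ80186; the dotted line marks equal fold changes. Of the red points 36 were called higher in light and 8 in darkness, and of the blue points 46 were called lower in light and 29 higher in darkness; points far from both axes include genes with few reads.

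Of the 57 genes lower in light, 46 were called lower than in WT in light and 2 higher, against 30.7% and 28.0% of all genes, with a median log2 fold change of −1.09 (all genes −0.03). In darkness, 29 were called higher and 5 lower, against 17.7% and 17.0% of all genes, with a median of 0.32 (all genes −0.005). The 3 light values of Δ80186 lay below all 15 other libraries in 39 of the 57 genes (8.37% of the 8009 rows), and the 3 dark values above all 15 others in 14 (4.61%). Gene by gene, 22 were lower in light alone (19.8% of all genes), 19 were higher in darkness and lower in light (2.71%), and 8 were higher in darkness alone (5.46%). Another 5 were lower in both conditions (8.12%), 2 (TrE0211W and TrC1498W) were higher in both (9.57%), and TrB1934C was called in neither (29.6%). As for the higher genes, the rule limits which of these classes a gene can take, and part of the excess over all genes is built in.

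The dark side of the difference was largest in TrC0131C and TrE0211W. TrC0131C had 6 reads in WT in darkness, all in replicate 3, against 38 to 186 in Δ80186 (log2 fold change 5.59 ± 0.85 SE, adjusted p = 0.00028). As a ratio of pooled reads this was 51.9, with 33.8, 35.5 and 33.3 without WT dark replicate 1, WT dark replicate 2 and Δ80186 dark replicate 1, and at least 69.0 without WT dark replicate 3. TrE0211W had 8.03, 7.21 and 3.66 CPM in Δ80186 in darkness against 0.418, 0.0766 and 0.434 CPM in WT (4.27 ± 0.53 SE, adjusted p = 1.6e-05), and the groups did not overlap. Both genes averaged at least 5 CPM only in the dark group of Δ80186, through which they entered the set.

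On the light side TrE0643W led, at −4.74 ± 0.26 (SE, adjusted p = 1.4e-09) against WT in light, with 124 to 154 CPM in WT. In darkness its log2 fold change was −0.09 ± 0.20 (adjusted p = 0.78), and the values overlapped. TrC1088W showed both sides at once. It was 0.31 ± 0.10 above WT in darkness (adjusted p = 0.021) and below it in light, at −1.23 ± 0.10 (adjusted p = 1.1e-08).

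In the lower genes called below WT in both conditions, the dark level was already reduced. That the light level was reduced more follows from the rule and is no separate result. TrB0776C had 1495, 2099 and 2641 CPM in WT darkness and 1555 to 2202 in WT light. Δ80186 had 568, 496 and 356 CPM in darkness, a log2 fold change of −2.15 ± 0.40 (SE, adjusted p = 0.0011), and 185 to 262 CPM in light. TrE1253C had 117 to 186 CPM in the 6 WT libraries, 50.9, 43.3 and 32.9 CPM in darkness in Δ80186 and 11.5, 13.4 and 12.1 CPM in light. The log2 fold change of TrE1253C against WT was −1.98 ± 0.14 (SE, adjusted p = 2.1e-08) in darkness and −3.43 ± 0.16 (adjusted p = 2e-11) in light. None of these groups overlapped with WT.

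The level in Δ21168 was left free by the rule, which held only its light response small. Of the 44 higher genes, 11 were called higher and 8 lower than WT in darkness, against 23.7% and 23.5% of all genes. In light 4 were called higher and 11 lower, against 19.5% and 20.5%. Of the 57 lower genes, 21 were called higher and 12 lower in darkness, and 20 higher and 11 lower in light. In percent of the genes in a set, 43.2% and 34.1% of the higher and 57.9% and 54.4% of the lower genes were called in darkness and in light, where 47.2% and 40.0% of all genes were. The median log2 fold changes were small, 0.14 in darkness and −0.19 in light for the higher genes and 0.29 and 0.24 for the lower genes, against 0.01 and 0.02 over all genes. The medians of both sets, here and in Δ80186, were the same with genes at 0 reads in a group, 0 to 4 per comparison, set at their bounds.

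Large shifts in Δ21168 were found for single genes. TrE1253C had 0.440 to 0.881 CPM in all 6 libraries of Δ21168, a log2 fold change against WT of −7.73 ± 0.23 (SE, adjusted p = 1.1e-13) in darkness and −7.68 ± 0.24 (adjusted p = 2.8e-13) in light. Its order of levels was therefore WT, then Δ80186 in darkness, then Δ80186 in light, then Δ21168, and none of these neighbours overlapped. TrA1512W had 279 to 336 CPM in WT darkness and 370.1 to 428 in WT light. In Δ80186 it had 140.2, 122 and 92.3 CPM in darkness and 54.1 to 57.5 in light, and in Δ21168 it had 33.9 to 50.3 CPM in both conditions. Against WT, its log2 fold change in Δ21168 was −2.95 ± 0.16 (SE, adjusted p = 8.4e-10) in darkness and −3.33 ± 0.16 (adjusted p = 3.3e-10) in light.

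In the other direction TrB1252W had 7.81 to 10.1 CPM in darkness and 7.57 to 12.2 in light in Δ21168, against 1.16 to 2.81 CPM in WT. Its log2 fold changes were 1.95 ± 0.27 (SE, adjusted p = 1.5e-05) and 2.30 ± 0.28 (adjusted p = 4.8e-06). TrE0211W stayed under 5 CPM in Δ21168 but was also above WT there without overlap. In light it had 52 reads against 0 in WT, at least 24.5-fold higher, and in darkness 43 against 13 (2.12 ± 0.61 SE, adjusted p = 0.0094). TrC0139C was higher than WT in darkness, at 5.41 to 8.05 against 1.25 to 1.95 CPM (1.98 ± 0.31 SE, adjusted p = 5.5e-05). TrD1001W, from the set higher in light in Δ80186, had 165 to 205 CPM in light in Δ21168 against 58.8 to 93.2 in WT (1.27 ± 0.22 SE, adjusted p = 0.00038). It reached 411, 454 and 416 CPM in light in Δ80186 and was at 62.3 to 94.2 CPM there in darkness.

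**Figure D5:**
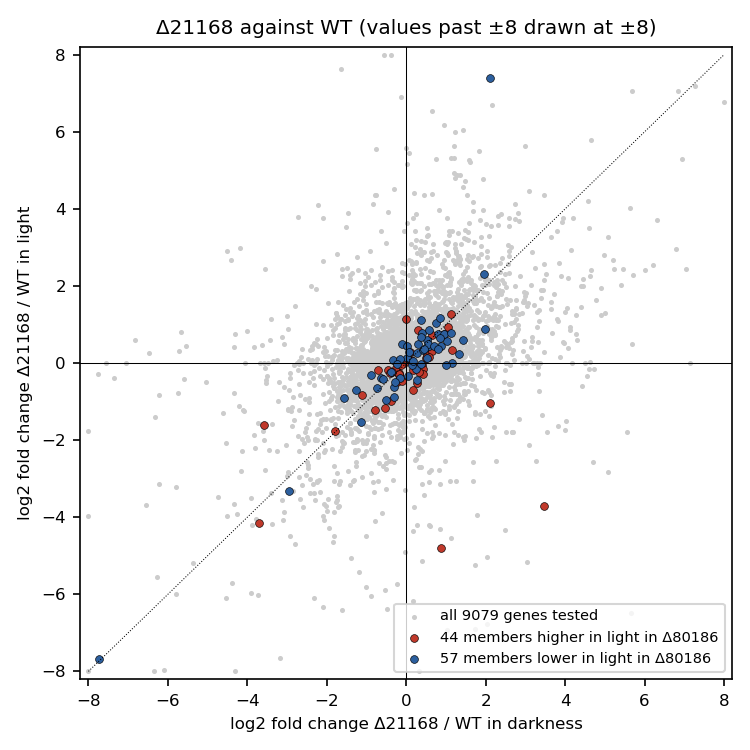
Log2 fold change of Δ21168 over WT in darkness (horizontal) and in light (vertical), drawn as for Δ80186, with the same colours. The 101 genes lie along the dotted line of equal fold changes because the rule held the light response small in both strains; TrE1253C is the blue point at lower left, and points far off the line have few reads.

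The replicate spread of the 101 genes was wider than that of all rows of at least 5 CPM, except for the higher genes in light in Δ80186. The median coefficient of variation of the higher genes was 9.21% in darkness and 5.38% in light in Δ80186, against 6.22% and 6.27% for all rows. For the lower genes it was 10.0% and 13.0%. The sets were not matched for level: the lower genes had a median of 18.5 CPM, against 45.0 CPM for all rows. The dark libraries of Δ21168 spread most in both sets, with 21.3% and 18.5%, as they did over all rows with 12.5%. A small L in Δ21168 does not exclude such scatter: TrB0776C had 1170, 2605 and 4233 CPM in those dark libraries. Membership depended on single libraries: 23 of the 44 higher and 26 of the 57 lower genes met the rule each time when each of the 18 libraries was left out in turn, and no gene met it fewer than 12 times.

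Of the 10879 identifiers, 10876, those of the 101 genes included, consist of a letter from A to G, a number that runs without gaps from 1 within a letter, and W or C. The 101 genes were found under all 7 letters. Only the 2 letter shares farthest from those of all rows are given here. D held 11 of the 57 lower genes (19.3%) against 13.3% of all rows, and G held 2 of the 44 higher genes (4.55%) against 11.1%. The ending C was borne by 34 of the 57 lower genes (59.6%) and 20 of the 44 higher ones (45.5%), against 50.7% of the rows. The shares of all rows include rows under 5 CPM, which the rule could not choose.

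Some of the genes had a direct neighbour by number that moved the same way. Of the 73 direct neighbours of lower genes with at least 5 CPM, 15 (20.5%) had an L of −1 or less in Δ80186, against 11.9% of all rows of that level and against 37.7% of the neighbours of the 895 other genes with so low an L. For the 59 neighbours of higher genes the share with an L of at least 1 was 6.78%, against 4.78% of all rows and 12.8% for the neighbours of the 339 other genes. The closest pairs of the same direction were 2 numbers apart, for instance TrB1233W and TrB1235W. TrB1235W had 922 to 967 CPM in light in Δ80186 and 250.1 to 353 CPM in all other libraries. TrB1233W had 177 to 200.4 CPM in the same libraries and 74.1 to 198.5 CPM elsewhere, and overlapped with dark replicate 3 of Δ21168. These pairs were picked after their values were seen.

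The same rule with the mutants exchanged gave a set of similar size. It found 105 genes for Δ21168, 61 higher and 44 lower in light, compared with 44 higher and 57 lower for Δ80186. A further 68 genes with an L under 0.5 in size in WT had an L of at least 1 in size in both mutants, 9 higher in both, 41 lower in both and 18 in opposite directions. These are counts of chosen genes, and their difference was not tested. The split by direction depends on how libraries are scaled. With library sizes scaled by TMM factors it was 50 higher and 49 lower for Δ80186, while the Δ21168 counts are given on column totals only.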

How the data were processed

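The authors deposited whole-number counts for 18 libraries, without normalisation. The submitters' processing notes name HISAT2 2.2.1, and per the labels' protocols libraries were made with a stranded kit after rRNA depletion. The genome build and the settings of counting, strand included, were not given in the sources, so overlapping, antisense and near-identical genes could not be told apart. All columns were matched through the sample descriptions (0 left out). CPM used column totals. Tests used edgeR 4.0.16 in R 4.3.3: filterByExpr (minimum count 10, minimum total 15; 9079 genes kept, 1800 removed), TMM factors (0.952 to 1.06), robust quasi-likelihood F tests on 1 mean per group with 12 residual degrees of freedom, and Benjamini-Hochberg adjustment over all genes tested. SE was derived from the F statistic (size of the fold change over the root of F) and understates the error of genes with few reads. The test was also run on simulated counts in which far fewer genes changed than were called here, so its error rates on these data are not known. Floors and intervals cover counting error only. Replicates were no duplicates (lowest chi-square per degree of freedom 4.37). DESeq2 1.42.0 served as an alternative. Named genes were, per comparison, the 2 with the highest and the 2 with the lowest log2 fold change among called genes of the set whose groups did not overlap and whose higher group averaged at least 5 CPM, plus the 2 most abundant per direction. The 2 genes on either side of the cutoff per direction were named apart from these, for their L alone. No sequences could be matched to the identifiers. The genes, rules and tests were chosen with earlier results of these data known.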

Additional observations from a re-analysis of the deposited data

How the results depend on the processing

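The rule gave 41 to 51 higher and 51 to 67 lower genes with 1 library left out. Under the other planned settings the number of lower genes moved most, to 93 at a minimum of 1 CPM. With WT and Δ80186 alone in the rule, chosen after seeing the data, it gave 90 and 139. CPM on TMM-scaled sizes gave 50 and 49, sharing 43 and 47 with the 44 and 57, and a pseudocount of 5 gave 50 and 54, sharing 33 and 29. Counts of calls kept within 1.5 times under every alternative run, except these small ones. Higher genes called below WT in light in Δ80186 numbered 2 in place of 1 with only the groups compared, and with only WT and Δ80186 libraries. Higher genes called above WT in light in Δ21168 numbered 7 in place of 4 with library totals, and 2 to 4 with 1 library left out. Lower genes called above WT in light in Δ80186 numbered 1 in place of 2 with library totals or only the groups compared, and 1 to 2 with 1 library left out. The cause was not tested. The log2 fold changes of named genes against WT all kept their direction and call, in 200 values over the alternative runs. Their size moved most in genes with few reads. TrC0131C in darkness ran from 4.96 to 9.51 and TrD0609C in light from 6.72 to 9.01, both in Δ80186. Libraries with the same replicate number did not deviate together (correlations −0.262 to 0.446, in 0 of 15 pairs of groups all above 0.1). With the replicate block, 27 lower genes were called above WT in darkness in Δ80186 in place of 29, and no count moved by over 1.5 times. That count of 29 was 20 to 24 with 1 library left out. Genes of a few reads per library allow only bounds or wide intervals, and the 5 CPM condition leaves out weaker responses.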
